A study of Mus musculus with 9 samples.

Results

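The genes of creatine and adenylate kinase energy buffering were examined in mouse stomach cells. The set held 9 genes, Ckb, Ckmt1, Ckmt2, Slc6a8, Gamt, Gatm, Ak1, Ak3 and Ak4, and its members were all 18 probe sets that the platform annotation pairs with exactly one of these genes, out of 34945 probe sets that name 1 gene, for 18193 genes, and 45037 in all. RNA of 9 samples had been hybridised to 1 Affymetrix mouse genome array each, in 3 groups of 3, all from C57BL/6 mice. The parietal group held gastric parietal cells, the acid-secreting cells of the corpus. The isthmus group held flow-sorted corpus cells positive for Mist1 and the red fluorescent reporter Tomato, taken after Lgr5+ cells had been ablated. The chief group held cells sorted by the same marks from stomachs with no such ablation. The sources used here give no ages, alleles, ablating agent or way in which parietal cells were collected. Values are log2 signals throughout, and the median of an array, which stands in here for background because no detection calls were used, lay between 5.80 and 6.70.

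Creatine buffering moves energy from where ATP is made to where it is spent. Creatine is made from arginine, glycine and a methyl group by Gatm and then Gamt, enters cells through the transporter Slc6a8, and is charged to phosphocreatine by mitochondrial creatine kinase (Ckmt1 in most tissues, Ckmt2 in striated muscle). The cytosolic enzyme Ckb uses phosphocreatine to restore ATP beside pumps and motors. Adenylate kinases turn a pair of ADP molecules into ATP and AMP, Ak1 in the cytosol and Ak3, which prefers GTP as the phosphate donor, in the mitochondrial matrix, where Ak4 also resides. Parietal cells carry very many mitochondria and spend ATP on the proton pump.

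The groups were first set against markers of their labels. All 9 parietal markers lay above the array median on every parietal array, with a summed linear signal of 61850 to 72910, against 13290 to 25240 on isthmus arrays and 16730 to 31920 on chief arrays. The proton pump subunit Atp4b was at 14.09 to 14.35 in the parietal samples, and it was bright in the sorted cells too, at 11.97 to 12.80 in the isthmus and 12.55 to 12.75 in the chief samples. Bhlha15, the gene of Mist1, was at 5.03, 1.34 and 7.36 on the isthmus arrays, although these cells are labelled Mist1+, and at 10.75, 10.05 and 9.20 on the chief arrays. These values are from the brighter of its 2 probe sets, and isthmus minus chief was not called (limma adjusted p = 0.138). That probe set was above the array median on 3 chief, 1 isthmus and 1 parietal array, and entered the tests below only through the chief arrays. Endocrine transcripts ran the other way from parietal ones, with a summed signal over 6 genes of 429 to 657 on parietal arrays, 18780 to 42450 on isthmus arrays and 40690 to 78530 on chief arrays. These lists move with the comparisons below, and their part in the members' differences was not tested. In RNA from many cells, fewer cells of a type and less RNA per cell cannot be told apart. Chief replicate 3 stood apart in connective tissue and blood, with Col1a1 at 12.48 and Hbb-b2 at 14.11, and it carried Xist at 11.72 beside the Y-linked Eif2s3y at 10.63. Parietal replicate 1 had Xist at 13.13 and Eif2s3y at 2.84, while Xist was at 4.46 to 5.93 on the other 7 arrays.

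Muscle is another classic home of these enzymes. Of 11 muscle genes, 7 lay below the array median on all parietal arrays, 9 on all isthmus arrays and 7 on all chief arrays, and the summed signal was 222 to 749, 317 to 498 and 409 to 600. Mylpf lay above the median on all 3 parietal arrays, at 7.66, 7.87 and 6.67, and was called in no comparison. Tagln lay above it on all 3 isthmus arrays, at 6.40, 8.47 and 6.90, and on 1 parietal and 1 chief array, and was also called in no comparison. The muscle creatine kinase Ckm, by its brighter probe set, was at 2.31, 6.03 and 2.84 on the parietal arrays, 4.37, 4.85 and 4.43 on the isthmus arrays and 5.32, 4.37 and 5.43 on the chief arrays. Only 1 of these 9 values, that of parietal replicate 2, was above its array's median.

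Of the 18 probe sets, 14, covering 7 genes, reached values over the array median on 3 or more arrays and were tested by limma within a fit to 21393 probe sets. The other 4 were those of Ckmt2 and Gatm and 2 of the 5 for Ak4. Between parietal and isthmus samples 8 of the 14 were higher and 0 lower, where 22.5% of all tested probe sets were called, 10.1% higher and 12.4% lower. Between parietal and chief samples 9 were higher and 1 lower, where 19.9% of all were called, 8.7% higher and 11.2% lower. Between isthmus and chief samples 0 of 14 passed by limma, where 1.12% of all passed, 0.234% higher and 0.888% lower, and 1 of the 14 had an unadjusted p under 0.05, as did 15.6% of all tested probe sets. The median log2 difference of the 14 was 0.90 for parietal minus isthmus, 1.35 for parietal minus chief and 0.15 for isthmus minus chief, beside -0.09, -0.13 and 0.00 over all tested probe sets. The parietal arrays did not overlap with the isthmus arrays for 13 of the 14 probe sets, nor with the chief arrays for 13, where 40.2% and 36.5% of all tested probe sets did not overlap. The isthmus and chief arrays overlapped for all 14, where 19.5% of all did not. With each array centred on its median, which moves the median difference of all probe sets to 0.28, 0.50 and 0.26, the calls over all probe sets split into 3453 higher and 1789 lower, 4676 and 1305, and 74 and 43, against 2160 and 2657, 1861 and 2404, and 50 and 190 as deposited. Under that scaling 9 members were called higher and 0 lower in each comparison with the parietal samples. One of the 14, Ak1 by 1423988_at, entered the test through its parietal values alone. Both comparisons with the parietal samples use the same 3 parietal arrays, and both with the chief samples the same 3 chief arrays.

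**Figure D1:**
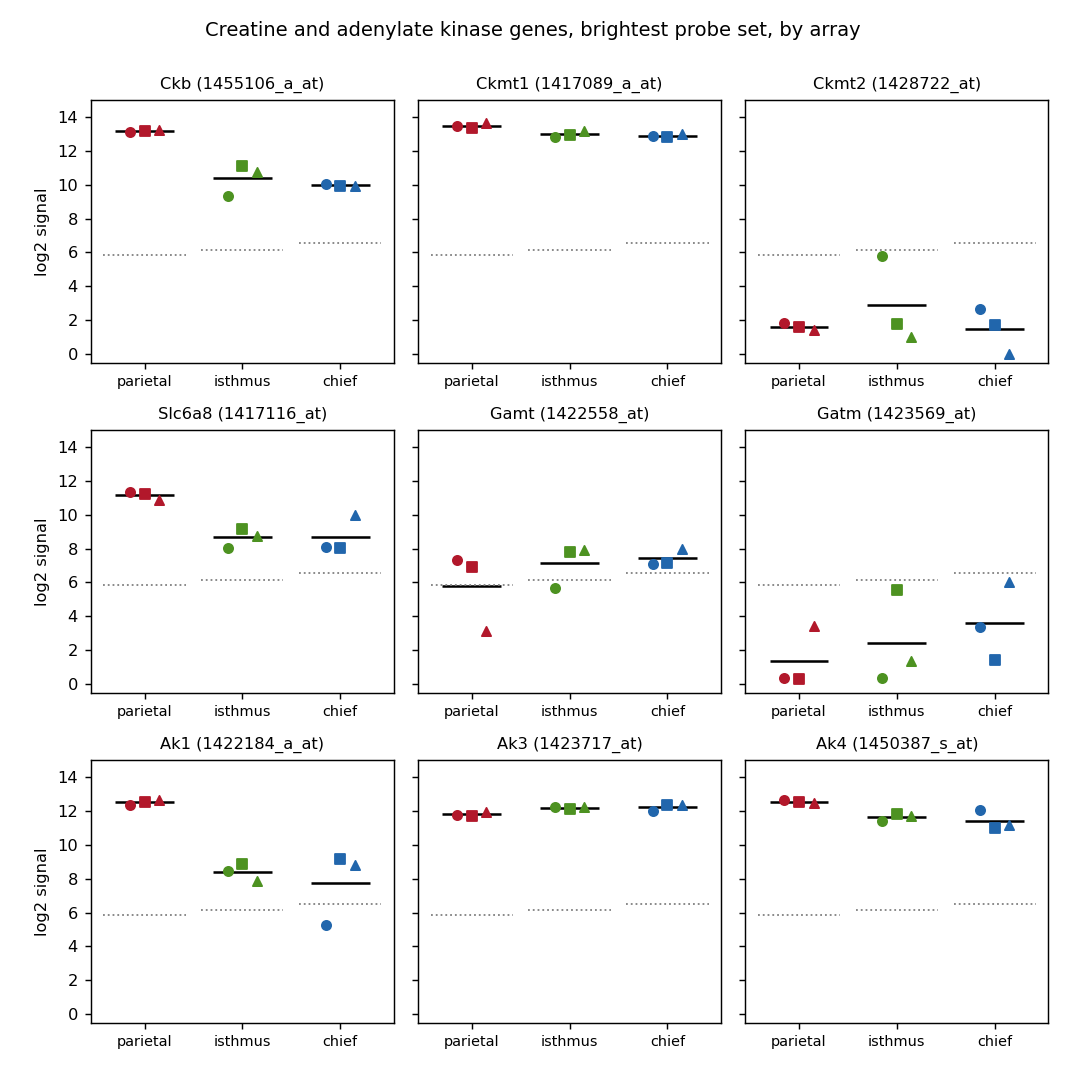
Log2 signal (vertical axes) of the brightest probe set of each of the 9 genes on every array, with parietal, isthmus and chief samples from left to right, replicates 1, 2 and 3 as circles, squares and triangles, the group mean as a black bar and the mean of the group's array medians as a dotted line. Ckb, Slc6a8 and Ak1 stand well above the sorted cells in the parietal samples, Ckmt1 and Ak4 by less, while Ckmt2 and Gatm lie below the array medians everywhere.

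The cytosolic creatine kinase Ckb was the member of the creatine branch with the greatest difference. Ckb was at 13.10, 13.18 and 13.23 on the parietal arrays, 9.33, 11.10 and 10.73 on the isthmus arrays and 10.06, 9.90 and 9.89 on the chief arrays. Every parietal array lay above every array of sorted cells, the parietal and chief replicates lay close together, and isthmus replicate 1 lay well below the other two of its group. Ckb rose 6.88-fold over isthmus samples (log2 difference 2.78 ± 0.36, SE; adjusted p = 0.000142) and 9.32-fold over chief samples (3.22 ± 0.36, SE; adjusted p = 5.66e-05). Both calls held under all 21 alternatives, with log2 differences of 2.25 to 3.15 and 3.07 to 3.85. Isthmus and chief samples overlapped, with a difference of 0.44 (95% interval -0.33 to 1.21; adjusted p = 0.599). Isthmus replicate 1 was also the lowest of its group in Atp4a and Atp4b, at 12.09 against 13.21 and 12.66, and at 11.97 against 12.80 and 12.45. Of the other parietal markers, Kcne2, Kcnj15 and Cckbr were also lowest on that array, while Kcnq1, Hrh2, Vegfb and Slc26a7 were not.

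Ckmt1, the mitochondrial partner of Ckb, was bright everywhere and rose by less. Its brighter probe set, 1417089_a_at, was at 13.46, 13.34 and 13.63 on the parietal arrays, 12.82, 12.94 and 13.13 on the isthmus arrays and 12.87, 12.80 and 13.00 on the chief arrays. The parietal values were all the highest and the sorted cells overlapped. It rose 1.43-fold over isthmus samples (log2 0.51 ± 0.12, SE; adjusted p = 0.00982) and 1.5-fold over chief samples (log2 0.59 ± 0.12, SE; adjusted p = 0.00511, and 0.134 with no intensity trend). The second probe set, 1432418_a_at, was at 12.16 to 12.54, 10.93 to 11.80 and 10.51 to 11.32 in parietal, isthmus and chief samples, and rose 1.88-fold and 2.68-fold (adjusted p = 0.0259 and 0.00226). Both probe sets are marked by the maker as matching several transcripts of the gene, and they differ in size of change but not in direction. Over isthmus samples the first lost its call without parietal replicate 3 (adjusted p = 0.0553) and the second without parietal replicate 2, parietal replicate 3 or isthmus replicate 1 (adjusted p = 0.0715, 0.0997 and 0.107). Quantile normalization ended both calls over isthmus samples (adjusted p = 0.105 and 0.0534), as did a fit with no intensity trend (0.169 and 0.105). On each array the log2 ratio of the brightest probe sets of Ckb and Ckmt1 shows how unequally they changed. That ratio was 2.27 higher in parietal than in isthmus samples and 2.63 higher than in chief samples, with no overlap (two-sided exact permutation p = 0.10 for each, the smallest that 3 arrays against 3 can give). Of 12 such comparisons of ratios, covering 4 gene pairs, none can fall below this p.

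Ckmt2, the creatine kinase of striated muscle mitochondria, was at 1.87, 1.62 and 1.42 on the parietal arrays, 5.80, 1.81 and 1.04 on the isthmus arrays and 2.67, 1.72 and 0.00 on the chief arrays. All 9 values lay below the median of their array, so no fold is given.

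The creatine transporter Slc6a8 rose with Ckb by both of its probe sets. By 1417116_at it was at 11.36, 11.23 and 10.87 on the parietal arrays, 8.05, 9.18 and 8.74 on the isthmus arrays and 8.08, 8.01 and 10 on the chief arrays. Parietal arrays again did not overlap with the others, and chief replicate 3, the array with connective tissue and blood transcripts, was nearest to them. The rise was 5.64-fold over isthmus samples (log2 2.50 ± 0.52, SE; adjusted p = 0.00386) and 5.49-fold over chief samples (log2 2.46 ± 0.52, SE; adjusted p = 0.00499), and both calls held under all 21 alternatives, with adjusted p-values of up to 0.0279. By 1448596_at it was at 10.49, 10.81 and 10.25 on the parietal arrays, 7.44, 8.68 and 8.87 on the isthmus arrays and 6.43, 8.28 and 8.04 on the chief arrays. That probe set rose 4.55-fold and 7.64-fold (adjusted p = 0.0137 and 0.00268), and its call over isthmus samples ended without parietal replicate 2 or isthmus replicate 1 (adjusted p = 0.0574 and 0.0562). The isthmus minus chief differences were -0.04 and 0.75, with 95% intervals of -1.16 to 1.08 and -0.47 to 1.96 and neither called.

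Of the enzymes that make creatine, Gamt was called in no comparison, and Gatm did not pass the filter and was not tested. Gatm, which carries out the first and rate-limiting step, was at 0.39, 0.32 and 3.41 on the parietal arrays, 0.36, 5.56 and 1.36 on the isthmus arrays and 3.40, 1.46 and 6.02 on the chief arrays, below the array median on all 9 arrays. Gamt, the methyltransferase of the second step, was at 7.33, 6.94 and 3.12 on the parietal arrays, 5.70, 7.77 and 7.90 on the isthmus arrays and 7.11, 7.16 and 8 on the chief arrays. Its groups overlapped, parietal replicate 3 lay far below the other two, and no comparison passed (adjusted p = 0.416, 0.322 and 0.923). The 95% intervals of -3.62 to 0.97 for parietal minus isthmus and -3.92 to 0.67 for parietal minus chief leave room for sizeable differences either way.

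Of 6 tested genes that supply arginine, ornithine or methyl groups, 1 rose and 1 fell over isthmus samples and 1 rose over chief samples. Among all tested probe sets, 22.5% and 19.9% were called in these comparisons. Oat, ornithine aminotransferase, rose 2.0-fold over isthmus and 2.07-fold over chief samples (adjusted p = 0.0171 and 0.0154). Ahcy, which clears the by-product of methyl transfer, fell over isthmus samples (log2 -1.90, adjusted p = 0.00503), and its difference from chief samples was -1.22 (adjusted p = 0.0527).

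Upstream sequences of the creatine kinases whose signals rose are shown as context, taken from RefSeq windows of the mouse build GRCm38.p6, which held 8 of the 9 genes. Each gives the 250 bases before an annotated start, 5′ to 3′ on the gene's strand. Capitals mark AAGGTCA, the core site bound by estrogen-related receptors, the TATA motif TATAAA and the motif CCAAT, each searched on both strands. Ckb lies on the minus strand at chr12:111672339-111672588, and Ckmt1, at the first of its 2 annotated starts, on the plus strand at chr2:121357526-121357775.
Ckb: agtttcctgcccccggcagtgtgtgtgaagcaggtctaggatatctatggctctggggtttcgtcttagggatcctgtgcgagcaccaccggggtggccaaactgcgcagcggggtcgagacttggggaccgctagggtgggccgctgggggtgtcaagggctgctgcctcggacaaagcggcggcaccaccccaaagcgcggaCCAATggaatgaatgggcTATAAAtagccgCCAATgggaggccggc
Ckmt1: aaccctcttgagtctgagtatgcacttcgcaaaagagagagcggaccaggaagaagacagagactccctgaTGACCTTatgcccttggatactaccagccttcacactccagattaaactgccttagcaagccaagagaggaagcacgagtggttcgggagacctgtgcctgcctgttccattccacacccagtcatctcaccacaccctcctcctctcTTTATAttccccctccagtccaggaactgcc
Ckb held 1 TATAAA, which began 28 bases before the start, and 2 CCAAT. Ckmt1 held 1 TATAAA, written here on the other strand as TTTATA and beginning 31 bases before the start, and 1 AAGGTCA, written here as TGACCTT and beginning 179 bases before it. The window of the second Ckmt1 start held 0 AAGGTCA, 0 TATAAA and 1 CCAAT. Among 32851 such windows of all genes, 12.4% held TATAAA, 33.8% held CCAAT and 4.08% held AAGGTCA. The longer form TNAAGGTCA, which contains AAGGTCA and is held by 1.14% of all windows, was in 0 of the 15 windows of the members.

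**Figure D2:**
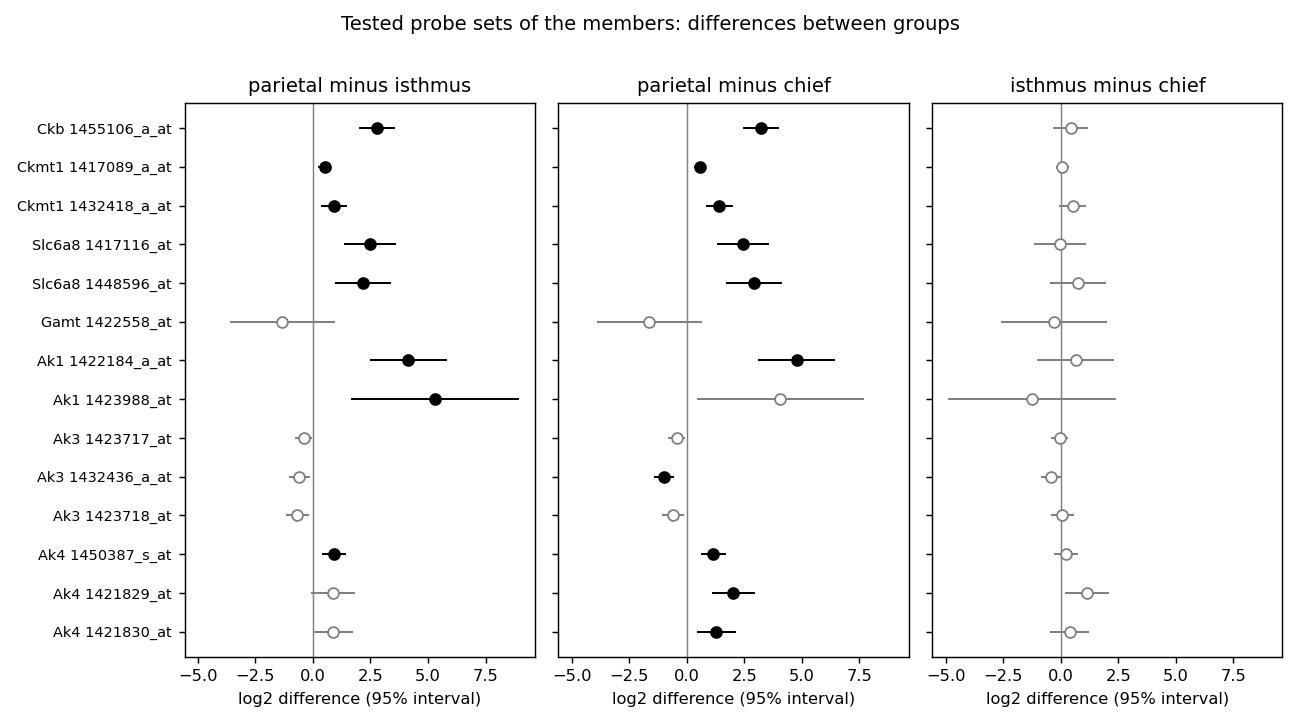
Log2 differences (horizontal axes) with 95% intervals from limma for the 14 tested probe sets, for parietal minus isthmus, parietal minus chief and isthmus minus chief, with filled points for an adjusted p under 0.05. The isthmus minus chief panel holds no filled point, and the 3 probe sets of Ak3 lie left of 0 in both parietal panels.

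Ak1, the cytosolic adenylate kinase, had the greatest fold of any member. By 1422184_a_at it was at 12.33, 12.54 and 12.65 on the parietal arrays, 8.42, 8.84 and 7.84 on the isthmus arrays and 5.24, 9.15 and 8.78 on the chief arrays. The parietal arrays lay more than 3 log2 above every other array, and chief replicate 1 was the lowest of all, below its array median. Ak1 rose 17.6-fold over isthmus samples (log2 4.14 ± 0.78, SE; adjusted p = 0.00193) and at least 21.2-fold over chief samples (log2 4.78 ± 0.78, SE; adjusted p = 0.000859), the bound being taken with the dim array at its median. Without chief replicate 1 the log2 difference from chief samples was 3.54 (adjusted p = 0.000104), and both calls held under all 21 alternatives. The other probe set, 1423988_at, was at 5.98, 7.47 and 6.91 on the parietal arrays, 0.29, 2.10 and 2.05 on the isthmus arrays and 0.18, 4.01 and 3.99 on the chief arrays. It passed the filter on low values through the parietal arrays alone, so that a difference was built into its selection, and its folds are no more than at least 1.55 and at least 1.20. It was called over isthmus samples (adjusted p = 0.0373), a call lost without any 1 of the 3 parietal or 3 isthmus arrays (adjusted p = 0.0518 to 0.154), and its difference from chief samples was 4.06 (adjusted p = 0.111).

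Of the 4 annotated starts of Ak1, the third, on the plus strand at chr2:32628140-32628389, held 1 AAGGTCA beginning 90 bases before the start, and it is shown, with the same marks, because of that match. The other 3 windows of Ak1 held 0 of each motif searched.
Ak1: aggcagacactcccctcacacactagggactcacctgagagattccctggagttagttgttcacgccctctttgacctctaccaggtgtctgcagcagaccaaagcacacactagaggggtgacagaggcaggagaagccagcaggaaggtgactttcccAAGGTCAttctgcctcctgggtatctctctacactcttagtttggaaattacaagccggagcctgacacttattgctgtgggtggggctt
This window held 0 TATAAA and 0 CCAAT, and the files do not say from which start the measured transcript came.

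Ak4, an adenylate kinase family protein of the mitochondrial matrix with weak enzyme activity, rose moderately. By its brightest probe set, 1450387_s_at, it was at 12.63, 12.52 and 12.47 on the parietal arrays, 11.37, 11.80 and 11.69 on the isthmus arrays and 12.04, 10.97 and 11.16 on the chief arrays. The groups did not overlap with the parietal one; chief replicate 1 came nearest to it. The rise was 1.89-fold over isthmus samples (log2 0.92 ± 0.25, SE; adjusted p = 0.0182) and 2.22-fold over chief samples (log2 1.15 ± 0.25, SE; adjusted p = 0.00592). The first call ended without parietal replicate 1, parietal replicate 2 or isthmus replicate 1 (adjusted p = 0.0614, 0.0504 and 0.0708), and both ended without the 2 arrays of high Xist together (adjusted p = 0.0626 and 0.0711) and with no intensity trend (0.0954 and 0.0555). The ending of this probe set's name marks probes that can match transcripts of more than 1 gene, so the other probe sets matter. By 1421829_at Ak4 was at 10.71 to 11.41, 9.71 to 10.55 and 8.15 to 10 in parietal, isthmus and chief samples, 4.08-fold higher than in chief samples (adjusted p = 0.00578, and at most 0.0475 over 20 alternatives), with a log2 difference of 0.88 from isthmus samples (adjusted p = 0.177). By 1421830_at it was at 10.05 to 10.65, 8.91 to 9.89 and 8.65 to 9.54, and 2.43-fold higher than in chief samples (adjusted p = 0.0333), a call lost without any 1 parietal array, without chief replicate 2, without chief replicate 3, without the 2 arrays of high Xist together or with no intensity trend (adjusted p = 0.0526 to 0.202), with a difference of 0.89 from isthmus samples (adjusted p = 0.121). The 2 remaining probe sets of Ak4 lay below the array median on at least 7 of 9 arrays, the exceptions being parietal replicates 2 and 3 by 1438395_at, at 6.88 and 6.21.

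Ak4 was also the member for which isthmus and chief samples came closest to a difference. By 1421829_at the isthmus arrays were at 9.71, 10.21 and 10.55 and the chief arrays at 10, 8.15 and 8.88. Only isthmus replicate 1 lay below the highest chief array. The log2 difference was 1.15 (95% interval 0.20 to 2.10; unadjusted p = 0.0215, limma adjusted p = 0.235), and its other tested probe sets gave 0.23 and 0.39, also uncalled.

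Ak3, the GTP-using enzyme of the matrix, had its lowest values in the parietal samples by all 3 of its probe sets, as deposited. By 1432436_a_at it was at 11.70, 11.28 and 11.34 on the parietal arrays, 11.79, 12.04 and 12.25 on the isthmus arrays and 12.16, 12.75 and 12.37 on the chief arrays. The parietal arrays were the lowest, with isthmus replicate 1 close above them. This probe set was 1.98-fold lower in parietal than in chief samples (log2 -0.99 ± 0.20, SE; adjusted p = 0.0044), a call lost when each array was centred on its median (log2 -0.35, adjusted p = 0.223) and with no intensity trend (adjusted p = 0.0523), and it differed from isthmus samples by -0.59 (adjusted p = 0.0561). By 1423717_at it was at 11.66 to 11.94, 12.10 to 12.24 and 11.98 to 12.36, with differences of -0.40 and -0.44 (adjusted p = 0.109 and 0.0836). By 1423718_at it was at 10.70 to 10.88, 11.13 to 11.68 and 11.09 to 11.59, with differences of -0.67 and -0.60 (adjusted p = 0.0525 and 0.0862). For these last probe sets the sign against chief samples turned under median centring, to 0.19 and 0.03. Their direction in that comparison thus depends on the scaling. Against isthmus samples all 3 probe sets stayed negative under every alternative. They were nearest to 0 under centring, at -0.03 and -0.30 for these last and -0.22 for 1432436_a_at, none called. Quantile normalization, in contrast, called all 3 probe sets lower in parietal than in isthmus samples (adjusted p = 0.0316, 0.0395 and 0.0272, in the order 1423717_at, 1423718_at, 1432436_a_at). Within arrays the log2 ratio of Ak1 over Ak3 was 4.54 higher in parietal than in isthmus and 5.22 higher than in chief samples, and that of Ak4 over Ak3 was 1.32 and 1.59 higher, without overlap (two-sided exact permutation p = 0.10 for each, the smallest possible). The symbols Ak3 and Ak4 have been used for each other in the past, and the names here follow the Entrez identifiers.

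**Figure D3:**
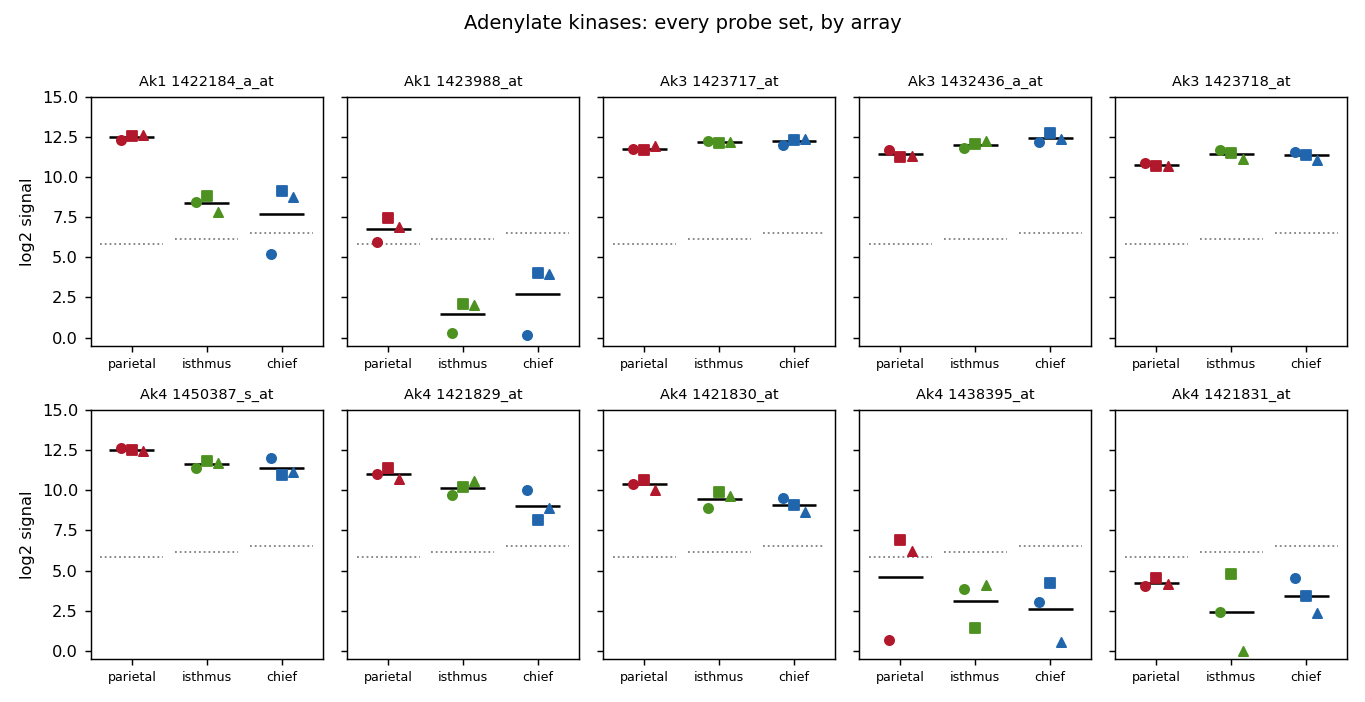
Log2 signal (vertical axes) of all 10 probe sets for Ak1, Ak3 and Ak4 on every array, with parietal, isthmus and chief samples from left to right, replicates 1, 2 and 3 as circles, squares and triangles, group means as black bars and the mean of the array medians as dotted lines. The 3 tested probe sets of Ak4 place the parietal samples highest, and the 3 of Ak3 place them lowest. The dim probe set of Ak1 lies above the dotted line in the parietal samples and below it elsewhere. The dim probe sets of Ak4 scatter around or below the dotted lines.

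The spread between replicates differed from group to group. Over the 14 tested probe sets the median SD was 0.21 in the parietal, 0.48 in the isthmus and 0.47 in the chief samples. Isthmus replicate 1 was the lowest of its group for 11 of the 14 probe sets, and parietal replicate 3 and chief replicate 1 of their groups for 7 each. The 8 member calls for parietal minus isthmus became 4 without parietal replicate 2 and 5 without parietal replicate 3. Without isthmus replicate 1, 4 member probe sets were called higher in parietal than in isthmus samples, those of Ckb, Slc6a8 by 1417116_at, Ak1 by 1422184_a_at and Ckmt1 by 1417089_a_at.

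Genes whose brightest probe set followed a member most closely over the 9 arrays were named by Pearson's r, as a description. For the members named here other than Gamt, the parietal arrays did not overlap with the sorted cells. For Ak3 the gap was narrow, with parietal replicate 3 at 11.94 and chief replicate 1 at 11.98. For Ckb they were Fabp12 (r = 0.993), a fatty acid binding protein, the mitochondrial ribosomal protein Mrpl41 (0.987) and Gabarapl1 (0.986), a protein of autophagosome membranes. For Ckmt1 they were Pgrmc2, a haem-binding membrane protein, Atp5c1, the gamma subunit of ATP synthase, and Macf1, a cytoskeletal linker (r = 0.974, 0.957 and 0.955). For Slc6a8 they were Tmem178, Plvap, a protein of endothelial fenestrae, and Fa2h, a fatty acid hydroxylase (r = 0.983, 0.982 and 0.970). Plvap was at a mean of 9.98 in the parietal, 2.25 in the isthmus and 2.62 in the chief samples. The part of endothelial transcripts in the members' values was not tested. For Ak1 they were Aldh1l1, an enzyme of folate metabolism, the syntaxin Stx12 and Miga2, a protein of mitochondrial fusion (r = 0.993, 0.988 and 0.984). For Ak4 they were Tpd52l1, Brap and the lipid kinase subunit Pik3cb (r = 0.960, 0.957 and 0.953), and for Ak3 the transcription factor Nrf1, Mr1 and the monocarboxylate transporter Slc16a9 (r = 0.972, 0.968 and 0.962). For Gamt they were Gdap10, Nexn and Wnt6 (r = 0.965, 0.963 and 0.940). The groups of Gamt overlapped, and parietal replicate 3, at 3.12, lay far below the other parietal arrays, at 7.33 and 6.94. Ckmt2 and Gatm lay below the array medians, and no such genes are named for them.

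Other enzymes that pass phosphate between nucleotides were then counted, with 1 probe set per gene. Counts in this and the following lists stand beside 22.5% of all tested probe sets called over isthmus and 19.9% over chief samples. Those shares count several probe sets for some genes. A fit with 1 probe set per gene called 3030 of 11006 genes over isthmus and 2664 over chief samples. Guk1, the guanylate kinase, rose 3.64-fold over isthmus samples and 3.86-fold over chief samples (adjusted p = 0.000361 and 0.000316), with arrays at 11.62 to 11.88 in the parietal, 9.86 to 9.96 in the isthmus and 9.49 to 10.24 in the chief samples. Of the 9 tested nucleoside mono- and diphosphate kinases, 2 rose, 3 fell and 4 did not pass over isthmus samples (median difference -0.21), and 1 rose and 8 did not pass over chief samples (median -0.10). Beside Guk1, Nme2, a nucleoside diphosphate kinase, rose over isthmus samples (log2 0.54, adjusted p = 0.00311), where Dtymk, the thymidylate kinase, fell (log2 -1.72, adjusted p = 0.00475) with Nme6 and Cmpk2 (adjusted p = 0.0339 and 0.0236). Cmpk2 entered the test only through its isthmus arrays, all 3 of which lay above the median, against 0 parietal and 1 chief array. Of the 6 listed adenylate kinases with a probe set, Ak5, Ak7 and Ak8 did not pass the filter, and their group means lay at or below 5.65.

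The purine nucleotide cycle regenerates AMP from IMP and releases ammonia. Of its 5 tested genes, 1 rose and 2 fell over isthmus samples, and 2 rose and 0 fell over chief samples. Adssl1, the muscle-type adenylosuccinate synthase, was at 9.79, 9.92 and 8.92 on the parietal arrays, 6.73, 4.37 and 3.61 on the isthmus arrays and 3.26, 4.13 and 5.88 on the chief arrays, at least 8.69-fold and at least 8.07-fold higher in parietal samples (adjusted p = 0.00475 and 0.00296). Only 1 other array, that of isthmus replicate 1, had it above the median, so it too entered the test through its parietal values, although it is counted above. Its ubiquitous counterpart Adss rose 3.30-fold over chief samples (adjusted p = 0.00118) and differed from isthmus samples by 0.53 (adjusted p = 0.227). The AMP deaminases Ampd2 and Ampd3 fell over isthmus samples (adjusted p = 0.0137 and 0.0458). Ampd2 was at least 9.34-fold lower, at 9.70, 8.31 and 4.29 on the parietal arrays, the last of which is below its array median, against 11.15 to 11.22 on the isthmus arrays. Ampd3 was 2.71-fold lower, and Ampd1, the muscle form, did not pass the filter.

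Phosphocreatine shuttling also depends on the carriers that take ATP out of mitochondria. Of 9 tested carriers and channels, 6 rose and 2 fell over isthmus samples, with a median difference of 0.45, and 4 rose and 1 fell over chief samples, with a median of 0.47. Slc25a4, the adenine nucleotide translocase of heart and muscle, was at 13.03 to 13.25 in the parietal, 10.98 to 11.86 in the isthmus and 10.95 to 12.03 in the chief samples, and rose 3.31-fold and 3.50-fold (adjusted p = 0.000691 and 0.00061). Its ubiquitous relative Slc25a5 rose 1.53-fold and 1.38-fold, and the phosphate carrier Slc25a3 1.90-fold and 1.88-fold (adjusted p of at most 0.00211 for each). Slc25a24, an ATP-Mg/phosphate carrier, fell in parietal samples, at 7.03 to 7.30 against 10.89 to 11.62 in the isthmus and 10.17 to 10.86 in the chief samples (adjusted p = 1.16e-05 and 4.03e-05). Its relatives Slc25a23 and Slc25a25 differed between the sorted groups themselves, by -3.11 and 2.65 for isthmus minus chief (adjusted p = 0.0279 and 0.0395).

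AMP-activated kinase reads the AMP that adenylate kinases make. Of its 9 tested subunits and activators, 2 rose and 0 fell in each comparison with the parietal samples. These counts lie near the share over all tested probe sets, of which 22.5% were called over isthmus and 19.9% over chief samples. The 2 were the catalytic subunit Prkaa2 (4.72-fold over isthmus and at least 4.0-fold over chief samples, adjusted p = 0.0281 and 0.0488) and the regulatory subunit Prkab2 (2.29-fold and 2.18-fold, adjusted p = 0.0231 and 0.0335). Prkaa2 was at 9.69 on chief replicate 3, close to parietal replicate 3 at 9.73. Between isthmus and chief samples 0 of the 9 passed by limma, where 1.12% of all tested probe sets passed.

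Estrogen-related receptors and their coactivators are known regulators of oxidative genes. Of 5 tested, 4 rose and 0 fell over isthmus samples, and the same counts held over chief samples, with medians of 1.55 and 1.86. Esrrg was at 13.72 to 13.93 in the parietal, 11.90 to 12.86 in the isthmus and 11.87 to 13.00 in the chief samples (adjusted p = 0.00223 and 0.00172). Esrrb, one of the 4, lay above the array median on the 3 parietal arrays alone and entered the test through them, so that a difference was built into its selection. It was at 8.23 to 9.25 on parietal, 2.69 to 4.33 on isthmus and 4.28 to 6.38 on chief arrays, at least 5.95-fold and at least 4.58-fold higher in parietal samples (adjusted p = 0.00197 and 0.0185). The coactivators Ppargc1a and Ppargc1b rose 3.67-fold and 2.93-fold over isthmus and 6.26-fold and 3.63-fold over chief samples (adjusted p of at most 0.00719 for each). Esrra differed by 0.66 and 1.21 (adjusted p = 0.393 and 0.112). Matches to the motif of these receptors in the upstream sequences above say nothing of binding.

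Ion pumps are the consumers that such buffering serves. Of 7 tested, 4 rose and 1 fell over isthmus samples, and 2 rose and 1 fell over chief samples. The proton pump subunits Atp4a and Atp4b rose 2.91-fold and 3.58-fold over isthmus samples and 2.07-fold and 3.07-fold over chief samples (adjusted p of at most 0.0165 for each). Both are among the parietal markers used above, so their rise is no separate result about pumps. They were the 2 that rose over chief samples. The others that rose over isthmus samples were Atp1b1 and Atp1b3 (adjusted p = 0.00203 and 0.021), and neither was called over chief samples (adjusted p = 0.558 and 0.285). Atp2a3, an endoplasmic reticulum calcium pump, fell (log2 -1.05 and -1.26, adjusted p = 0.0319 and 0.015).

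**Figure D4:**
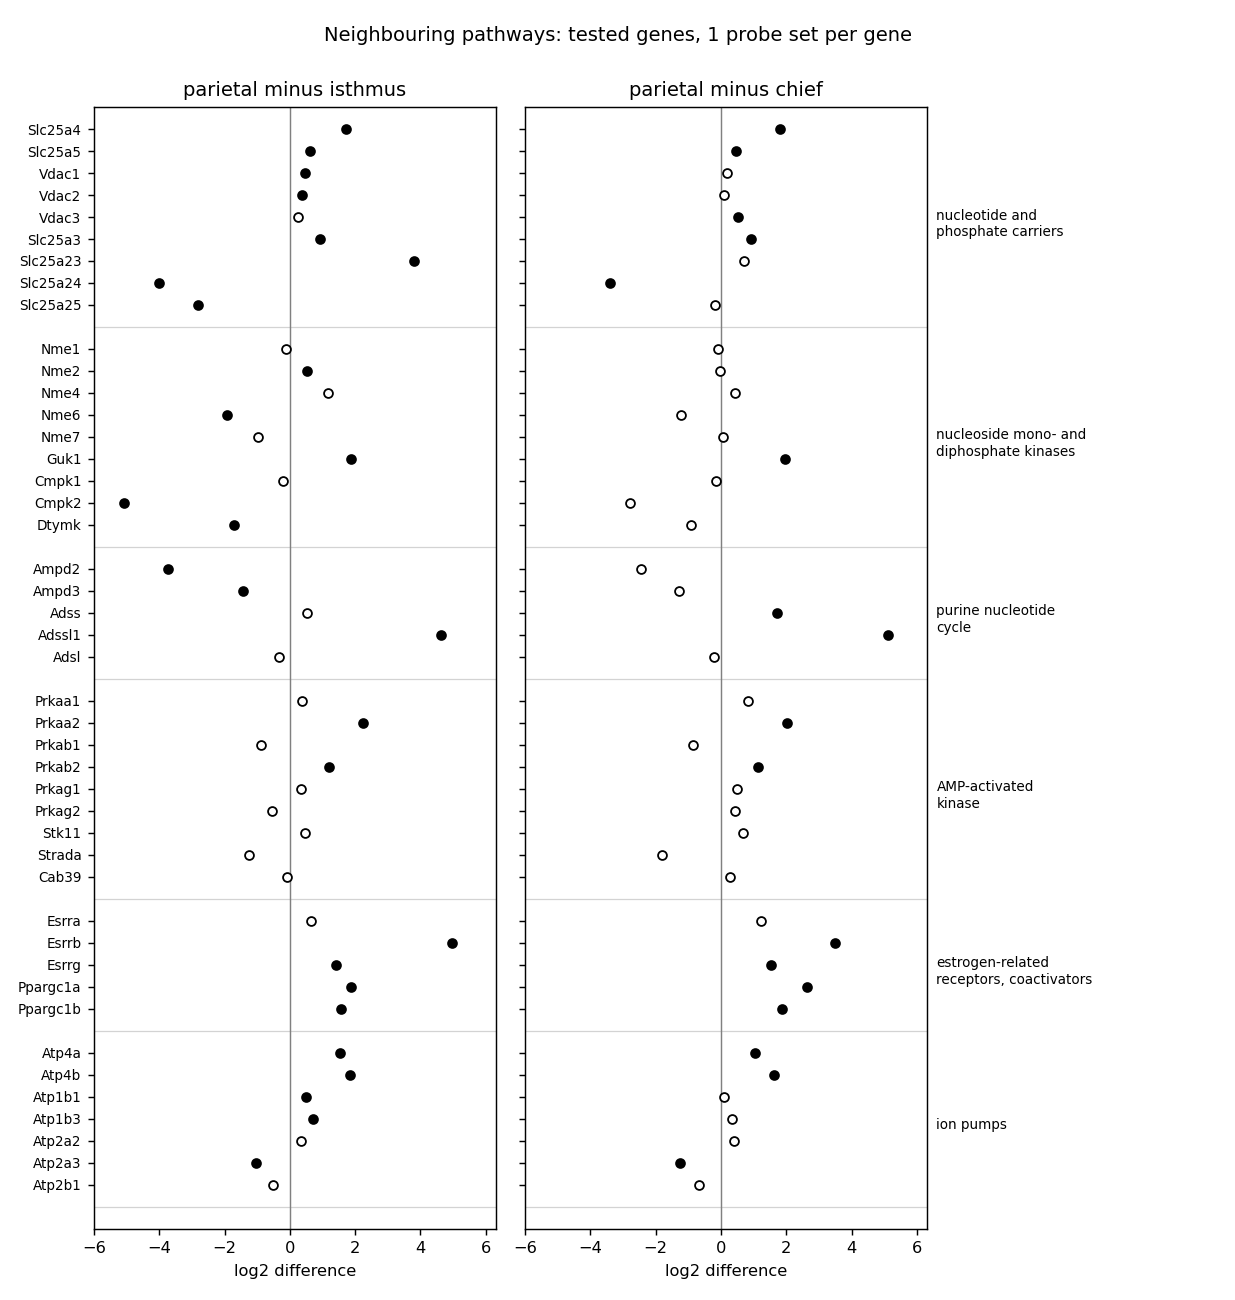
Log2 differences (horizontal axes) of the tested genes of 6 neighbouring lists, 1 probe set per gene, for parietal minus isthmus and parietal minus chief, with filled points for an adjusted p under 0.05 over all tested probe sets. The receptor and coactivator list holds 4 filled points right of 0 in each panel, while the nucleoside kinases and the purine nucleotide cycle hold filled points on both sides over isthmus samples.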

How the data were processed

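Biotin-labelled RNA from 9 samples was hybridised to Affymetrix arrays, per the labels' protocols. The authors deposited signals on a log2 scale that MAS5 had made, per the submitters' processing notes, whose version and floor no source states. The base was settled from the values, since raising 2 to them gave every array a trimmed mean of 496 to 497, and 1.99% to 3.91% of values were 0. Gene names came from the platform annotation, checked by Entrez identifier against RefSeq genes of GRCm38.p6, which matched 34741 of 34945 and changed 0 symbols. The 21393 probe sets whose value exceeded the array median 3 or more times were tested by limma 3.58.1 under R 4.3.3 (lmFit, contrasts.fit, then eBayes, its prior variance following intensity), with no further scaling of the deposited log2 values, in 1 fit with a mean per group and 6 residual degrees of freedom. Tests were two-sided, with Benjamini-Hochberg adjustment over all 21393 probe sets per comparison, and 0.05 was the threshold for a call. Single-gene p-values in the text are limma's, and those of ratios are exact permutation tests. A fold is given as "at least" where the dimmer group had an array under its own median, that array being set to the median. Listed genes other than members were counted by their brightest probe set on average. For each list, up to 4 called genes with the largest differences, or the 2 brightest where none was called, were eligible to be named, and a part of these is named, with further listed genes named after their values were seen. For each of the 7 members with a tested probe set, the 3 genes with the highest Pearson's r were named, leaving out unnamed clones. The members and lists were chosen with earlier results of these data known, as were the motifs and ratios. Groups and replicate numbers come from the sample titles. The labels do not say whether samples came from separate animals, and p-values then cover the spread among these samples alone, which can be technical. No pair of arrays was alike, the smallest median absolute difference being 0.74 log2. The number of arrays limits the precision.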

Additional observations from a re-analysis of the deposited data

How the results depend on the processing

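Of the calls on members, those of Ckb, of Slc6a8 by 1417116_at and of Ak1 by 1422184_a_at held under every alternative that was run, in both comparisons with parietal samples. The number of member probe sets called was 8 for parietal minus isthmus and 10 for parietal minus chief. With 1 probe set per gene, which tests 7 member genes in place of 14 probe sets, it was 5 of 7 in each comparison, all higher. That fit called 3030 of 11006 genes in all for parietal minus isthmus and 2664 for parietal minus chief. Without the intensity trend, 5 of the 14 member probe sets were called for parietal minus isthmus. Leaving out single arrays gave 4 to 10 for parietal minus isthmus, 9 to 11 for parietal minus chief and 0 throughout for isthmus minus chief. Below 6 were the counts for parietal minus isthmus without parietal replicate 2 (4), parietal replicate 3 (5) and isthmus replicate 1 (4). With the replicate block the counts were 9, 10 and 0. Same-numbered arrays of different groups deviated from their group means with correlations of -0.02 to 0.06, and different-numbered arrays with -0.05 to 0.03. With group means of 3 arrays this cannot decide whether samples of the same number were collected together. Over all probe sets, 240 were called for isthmus minus chief, and 119 with no filter, 117 with medians centred, 424 with a pseudocount of 64, 116 with only both groups in the fit, 33 with no intensity trend, 118 with array weights and 51 without chief replicate 3 and parietal replicate 1. Single arrays left out gave 28 to 233 there, 2993 to 4173 of 4265 for parietal minus chief and 3532 to 5108 of 4817 for parietal minus isthmus. With 1 probe set per gene these last comparisons gave 2664 and 3030, and without chief replicate 3 and parietal replicate 1 parietal minus chief gave 2476. Quantile normalization left 9 member calls for parietal minus isthmus (6 higher, 3 lower) and 11 for parietal minus chief (9 higher, 2 lower). Uncalled differences turned sign as follows, and the cause was not tested. Under centring, Ak3 turned to 0.19 by 1423717_at and 0.0333 by 1423718_at for parietal minus chief, where leaving out arrays gave -0.56 to -0.36 and -0.80 to -0.49, and for isthmus minus chief Ak3 by 1423717_at and Slc6a8 by 1417116_at each turned to 0.22. For isthmus minus chief, leaving out arrays gave -0.60 to 1.36 for Ak1 by 1422184_a_at (negative without chief replicate 1), -0.165 to 0.025 for Ak3 by 1423717_at (positive without chief replicate 2 or 3), -0.065 to 0.22 for Ak3 by 1423718_at (negative without chief replicate 3 or isthmus replicate 1), -0.01 to 0.145 for Ckmt1 by 1417089_a_at (negative without isthmus replicate 3), -0.69 to 0.41 for Gamt (positive without isthmus replicate 1) and -0.38 to 0.61 for Slc6a8 by 1417116_at (positive without chief replicate 3 or isthmus replicate 1). For parietal minus isthmus Gamt ranged from -2.09 to 0.0117 (positive without parietal replicate 3).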

Other observations

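Markers of cells other than parietal cells were at the following levels. The chief cell zymogen Pgc was at a mean of 13.17 in the parietal, 13.91 in the isthmus and 14.81 in the chief samples, and the pit cell protein Gkn1 at 13.97, 14.35 and 15.01. Leukocyte markers were dim, with a summed signal over 5 genes of 52.0 to 67.7 in the parietal, 35.3 to 231 in the isthmus and 48.9 to 766 in the chief samples. For 5 markers of neurons and glia the sums were 148 to 784, 414 to 946 and 809 to 1481. Tubb3, at 9.09, 5.59 and 7.56 on the parietal arrays, lay above every array of sorted cells, as did the dim Gfap. Snap25 ran the other way, and Elavl3 and S100b overlapped. The part of such transcripts in the members' values was not tested.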
